A study of Mus musculus with 16 samples.

Results

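The 10 genes described here, Pmel, Mlana, Tyr, Tyrp1, Dct, Oca2, Slc45a2, Mitf, Kit and Ednrb, are genes of the pigment cell lineage, and they were chosen by symbol from the 19439 genes listed in at least 1 of 16 ear skin libraries. All 10 passed the filter on low counts. The libraries came from BALB/c mice aged 8 weeks, 4 mice in each of 4 groups. In every group the ear was treated with imiquimod (IMQ), a cream that brings on psoriasis-like inflammation, so no group represents untreated skin. The groups labelled IMQ received intradermal injections of 10 μl normal saline, called vehicle here, and the groups labelled LPC received the same volume of LPC at 10 mM. Injections were planned daily for 6 days, and skin was taken on day 4 or day 7. Whole lesional skin was sequenced, so the values are sums over all its cell types.

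Melanocytes arise from the neural crest and make melanin in melanosomes, organelles related to lysosomes. BALB/c mice are albino because their tyrosinase, the enzyme that starts melanin synthesis, carries an inactivating amino acid change, and they also carry the brown allele of Tyrp1. Albino skin keeps its melanocytes, which lack pigment, so the genes of the lineage can still be measured. In mice these cells sit in growing hair bulbs and, in the ear, also outside the follicles.

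The members fall into 2 sets by role. Pmel forms the fibrils of the melanosome and Mlana is a melanosome membrane protein. Tyr, Tyrp1 and Dct encode the enzymes of melanin synthesis. Oca2 and Slc45a2 encode transport proteins of the melanosome. These are called the 7 pigment genes below. The other 3 members regulate the lineage and are shared with other cells. Mitf is its leading transcription factor and is also used by mast cells and macrophages. Kit is the receptor of stem cell factor and also marks mast cells, and Ednrb is an endothelin receptor also found in endothelium and glia.

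MITF binds an E-box with a T before it, TCATGTG, often called the M-box. In the RefSeq promoter windows of build GRCm38.p6, which span 250 bases before to 50 after a gene's start, 7 of the 10 members had an entry. The 7 letters, searched on both strands, were found for Tyr, Tyrp1 and Dct. For Tyrp1 the window belongs to a start inside the gene's annotated span (chr4:80834123-80851736). A gene can have several windows, and 3 of the 10 windows of the members held a match. Such a match was found in 3.77% of all 32851 windows and in 2.39% of the 15112 windows of the genes tested. Among the 8 other genes most like the pigment genes in these data, named further below, 5 had a window, and Slc24a5 and Trpm1 held a match. A match describes letters only and shows no binding. The matched stretches are shown because they are what these 5 genes share in sequence, with the motif, or its reverse complement CACATGA, in capitals on each gene's own strand.
Tyr, chr7:87493516-87493545, minus strand: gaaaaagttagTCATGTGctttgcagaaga
Tyrp1, chr4:80834155-80834184, plus strand: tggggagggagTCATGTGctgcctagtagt
Dct, chr14:118052379-118052408, minus strand: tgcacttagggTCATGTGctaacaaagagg
Dct, chr14:118052460-118052489, minus strand: cttggctgggaCACATGAgcccaataaaga
Slc24a5, chr2:125068103-125068132, plus strand: aggagactgctCACATGAttcagcataagt
Trpm1, chr7:64153682-64153711, plus strand: ccaaatcctcaTCATGTGcccaccccaaac

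Dct was the only one of these genes with 2 matches, 1 in each orientation. The 250 bases upstream of its start are printed to show how they lie, with both in capitals.
Dct upstream, chr14:118052247-118052496, minus strand: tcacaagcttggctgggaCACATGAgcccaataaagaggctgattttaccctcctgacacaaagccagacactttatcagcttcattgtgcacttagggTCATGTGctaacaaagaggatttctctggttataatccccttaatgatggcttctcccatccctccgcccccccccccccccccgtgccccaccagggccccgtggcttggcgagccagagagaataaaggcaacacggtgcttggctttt

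Library depth ranged from 18704197 to 20131513 expected counts, so depth differed little between mice. Expected counts are the read counts that RSEM assigns to a gene, and FPKM scales them to transcript length and depth. Levels are given below in FPKM and changes as log2 fold changes of edgeR's quasi-likelihood test, with standard errors (SE) and with p-values adjusted by Benjamini-Hochberg over 15782 genes. A gene is called at an adjusted p under 0.05. The counts of Pmel, Tyr and Ednrb were not whole in any of the 16 libraries, so part of their reads was shared with other genes.

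Pigment cell RNA was readily measured in this albino skin, at moderate to low levels. By median FPKM over the 16 libraries the order was Dct (8.94), Pmel (8.07), Tyrp1 (5.03), Mlana (4.84), Ednrb (4.2), Mitf (3.46), Kit (2.105), Tyr (1.28), Slc45a2 (0.4) and Oca2 (0.355). The ranges over libraries overlapped for every adjacent pair in this order. Compared within libraries, Tyr was above Slc45a2 in 16 of 16, and Pmel was above Tyrp1, Mitf above Kit and Kit above Tyr in 15 of 16 each. The other adjacent pairs changed places more often, Mlana being above Ednrb in 8 and Slc45a2 above Oca2 in 7 of 16. Tyr, the gene that is mutated in this strain, was listed in every library, from 0.66 to 2.95 FPKM. Its percentile among all listed genes by median FPKM was 34.5, against 62.2 for Dct. Oca2 was the only member with a count of 0 in a library.

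**Figure D1:**
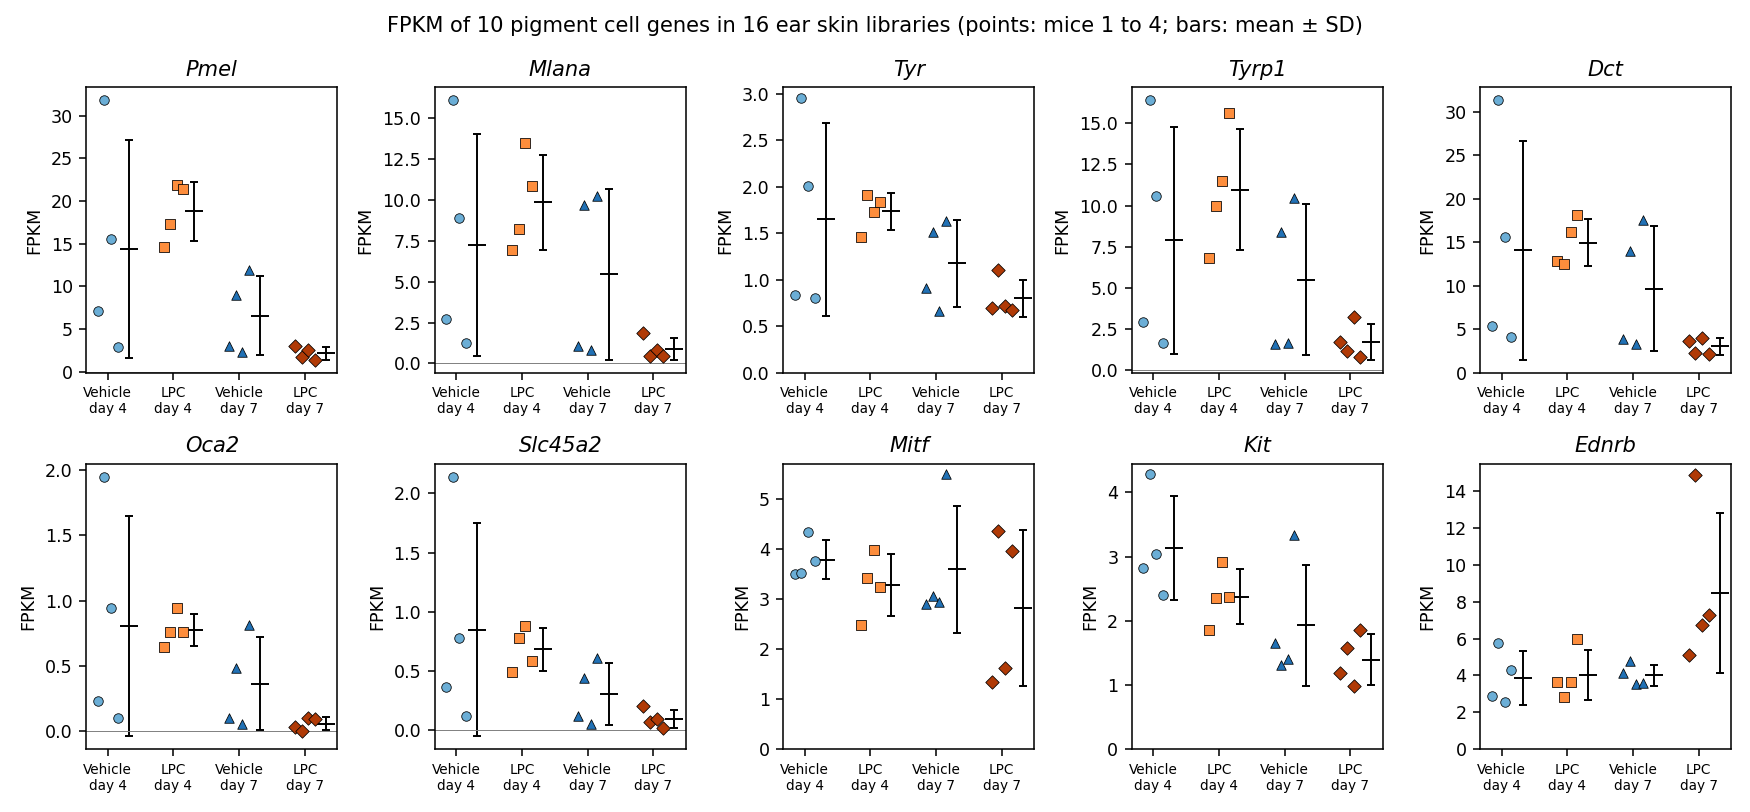
FPKM of each gene (vertical axis, linear, own scale per panel) in the 4 groups, with 1 point per mouse and the group mean ± SD as a bar. The vehicle groups are widely spread in the 7 pigment genes, while the LPC day 7 mice lie below all LPC day 4 mice in each of them and the mean of Ednrb is highest in LPC day 7.

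The melanosome structure genes differed widely from mouse to mouse. Pmel was at 7.11, 31.82, 15.52 and 2.91 FPKM in vehicle mice 1 to 4 on day 4, and at 14.66, 17.27, 21.84 and 21.47 FPKM in the LPC mice of that day. On day 7 it was at 3.06, 9.03, 2.37 and 11.92 FPKM in vehicle mice and at 3.00, 1.71, 2.56 and 1.42 FPKM in LPC mice. The LPC groups of the 2 days did not overlap, whereas each vehicle group spanned a wide range. Mlana was at 2.74, 16.11, 8.89 and 1.22 FPKM in vehicle mice on day 4, at 6.94, 8.21, 13.48 and 10.87 FPKM in LPC mice on day 4, at 1.05, 9.70, 0.83 and 10.25 FPKM in vehicle mice on day 7 and at 1.86, 0.46, 0.83 and 0.43 FPKM in LPC mice on day 7. Its highest library was 28.2-fold above its lowest in CPM, counts scaled to library size, the widest ratio among the 8 members for which it was computed. Mlana had only 6 counts at its lowest, so this ratio is imprecise. The same vehicle day 4 mouse, number 2, was the highest of all 16 in each of the 7 pigment genes.

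The enzymes of melanin synthesis followed the same mice. Dct was at 5.33, 31.34, 15.59 and 4.14 FPKM in vehicle mice on day 4 and at 12.83, 12.55, 16.22 and 18.10 FPKM in LPC mice on day 4. On day 7 Dct was at 3.87, 13.96, 3.32 and 17.51 FPKM in vehicle mice and at 3.66, 2.28, 4.02 and 2.10 FPKM in LPC mice. In Dct, vehicle mice 2 and 4 of day 7 thus sat near the LPC mice of day 4, and vehicle mice 1 and 3 of day 7 near the LPC mice of day 7. The vehicle mice of day 4 were likewise spread, with mice 1 and 4 low and mice 2 and 3 high. Tyrp1 was at 2.96, 16.40, 10.60 and 1.68 FPKM in vehicle mice on day 4, at 6.8, 9.99, 11.50 and 15.62 FPKM in LPC mice on day 4, at 1.57, 8.38, 1.64 and 10.44 FPKM in vehicle mice on day 7 and at 1.75, 1.15, 3.26 and 0.79 FPKM in LPC mice on day 7. Tyr was at 0.83, 2.95, 2.01 and 0.80 FPKM in vehicle mice on day 4, at 1.46, 1.91, 1.73 and 1.83 FPKM in LPC mice on day 4, at 0.91, 1.51, 0.66 and 1.63 FPKM in vehicle mice on day 7 and at 0.70, 1.10, 0.72 and 0.67 FPKM in LPC mice on day 7. Tyr rank-ordered the mice much like the other enzymes but over a narrower range, 4.02-fold from lowest to highest CPM against 19.7-fold for Tyrp1 and 15.6-fold for Dct. In counts, Tyr amounted to 0.228 of Pmel in the library where that ratio was lowest, LPC mouse 3 on day 4, and to 1.80 of Pmel in the library where it was highest, LPC mouse 2 on day 7.

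The transporters were the scarcest members. Oca2 was at 0.23, 1.95, 0.94 and 0.10 FPKM in vehicle mice on day 4 and at 0.64, 0.76, 0.94 and 0.76 FPKM in LPC mice on day 4. On day 7 Oca2 was at 0.10, 0.48, 0.05 and 0.81 FPKM in vehicle mice, and the LPC mice had only 2, 0, 6 and 6 counts. A count of 0 allows up to 3 counts, which is between 0.149 and 0.16 CPM at these depths, for counting error only. Slc45a2 was at 0.36, 2.14, 0.78 and 0.12 FPKM in vehicle mice on day 4, at 0.49, 0.78, 0.88 and 0.58 FPKM in LPC mice on day 4, at 0.12, 0.44, 0.05 and 0.61 FPKM in vehicle mice on day 7 and at 0.20, 0.07, 0.09 and 0.02 FPKM in LPC mice on day 7. In the vehicle groups both genes were high and low in the same mice as the more abundant pigment genes. In the LPC day 7 mice, at very low counts, the 2 genes did not follow each other, Slc45a2 having 12, 4, 5 and 1 counts.

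The 7 pigment genes moved as a block from mouse to mouse. Pearson's r of log2 CPM over the 16 libraries lay between 0.858 and 0.979 for the 21 pairs, with a median of 0.942. With each group's mean removed it lay between 0.769 and 0.968, so the shared variation was also present among mice of 1 group. The lowest pair was Tyr with Oca2 and the highest Tyrp1 with Dct. Kit followed the block less closely, with r from 0.52 to 0.68. Mitf had r from 0.112 to 0.311 with the pigment genes, and Ednrb from -0.54 to -0.243. With each group's mean removed, these ranges were 0.306 to 0.493 for Kit, -0.092 to 0.231 for Mitf and -0.066 to 0.278 for Ednrb, so the negative values of Ednrb were not seen among mice of 1 group. These values are descriptions over mice that share groups and libraries.

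**Figure D2:**
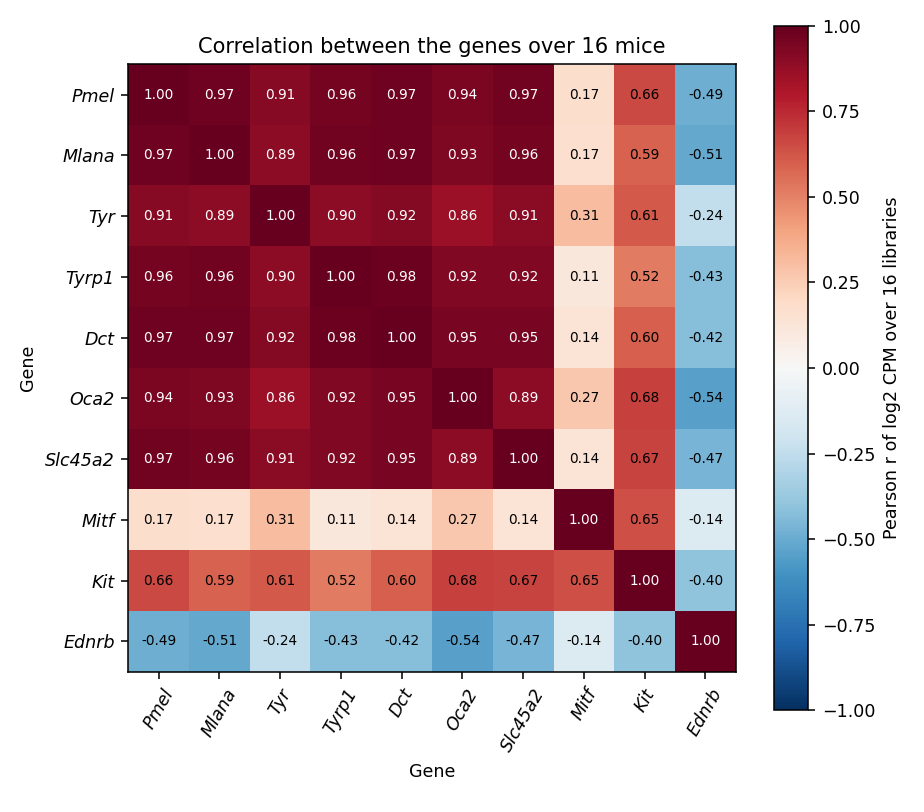
Pearson's r of log2 CPM between each pair of genes over 16 libraries, from -1 (blue) to 1 (red). The 7 pigment genes form a block with r of at least 0.858, Kit stands between, and Mitf and Ednrb lie outside it.

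Among genes outside the 10, those whose log2 CPM over the 16 libraries was most like the mean of the pigment genes (each gene scaled to a z-score) were Slc24a5 (r = 0.966), Trpm1 (0.954), Ptgds (0.936), Slc24a4 (0.932), Notum (0.905), Usp43 (0.901), Oplah (0.901) and Mcoln3 (0.9). Slc24a5 is an ion exchanger of the melanosome and Trpm1 an ion channel of melanocytes. Slc24a5 was at 2.04, 3.11, 3.64 and 4.37 FPKM in LPC mice on day 4 and at 0.50, 0.37, 0.73 and 0.10 FPKM in LPC mice on day 7, without overlap. Trpm1 was at 1.26, 2.11, 2.5 and 1.93 FPKM and at 0.20, 0.13, 0.27 and 0.22 FPKM in the same groups. Both genes were picked here for their likeness to the pigment genes in the same libraries. Their lack of overlap therefore follows from the choice and is no separate evidence. In CPM, 8.22% of all genes were lower without overlap in that comparison. Oplah, an enzyme of glutathione turnover, was far more abundant, with a median of 29.5 FPKM.

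The regulators differed from the block and from each other. Mitf was at 3.50, 3.52, 4.33 and 3.76 FPKM in vehicle mice on day 4, at 2.48, 3.42, 3.98 and 3.23 FPKM in LPC mice on day 4, at 2.89, 3.05, 2.93 and 5.48 FPKM in vehicle mice on day 7 and at 1.35, 4.36, 1.62 and 3.96 FPKM in LPC mice on day 7. LPC day 7 mice 2 and 4 were high in Mitf although they were the lowest 2 mice in the mean of the pigment genes. The gene-level value sums all promoters of Mitf, so the melanocyte form could not be separated. Kit was at 2.82, 4.28, 3.04 and 2.41 FPKM in vehicle mice on day 4, at 1.86, 2.35, 2.91 and 2.37 FPKM in LPC mice on day 4, at 1.65, 1.32, 1.41 and 3.33 FPKM in vehicle mice on day 7 and at 1.18, 1.58, 0.98 and 1.85 FPKM in LPC mice on day 7. Ednrb was at 2.90, 5.76, 2.56 and 4.28 FPKM in vehicle mice on day 4, at 3.62, 2.82, 3.64 and 5.95 FPKM in LPC mice on day 4, at 4.12, 4.79, 3.54 and 3.58 FPKM in vehicle mice on day 7 and at 5.10, 14.85, 6.71 and 7.30 FPKM in LPC mice on day 7. All LPC day 7 mice were above all vehicle day 7 mice in Ednrb, and mouse 2 was far above the rest.

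Between day 4 and day 7 under LPC, 5 pigment genes fell and Ednrb rose. Pmel fell by 2.96 on the log2 scale (SE 0.65, adjusted p = 0.01474, edgeR), from 39.5 ± 7.47 to 5.07 ± 2.08 CPM (SD, n = 4 mice each). Mlana fell by 3.24 (SE 0.87, adjusted p = 0.03158), Oca2 by 3.62 (SE 1.02, adjusted p = 0.03675), Dct by 2.18 (SE 0.65, adjusted p = 0.04401) and Tyrp1 by 2.52 (SE 0.75, adjusted p = 0.04529). Ednrb rose by 1.17 (SE 0.34, adjusted p = 0.04208). The other 4 members did not pass: Slc45a2 was at -2.70 (adjusted p = 0.06251), Tyr at -1.02 (adjusted p = 0.08325), Kit at -0.64 (adjusted p = 0.146) and Mitf at -0.12 (adjusted p = 0.8177).

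In that comparison 6 of the 10 members were called by edgeR, against 11% of all genes tested, 4.13% being called lower and 6.87% higher. At an unadjusted p under 0.05 there were 9 members and 30.8% of all genes. DESeq2 called 8 members, Tyr (adjusted p = 0.04101) and Slc45a2 (adjusted p = 0.01422) besides these 6. The shares of all genes given here are edgeR's, so the 8 members called by DESeq2 have no share of its own beside them. The number of all genes called was 1736 by edgeR and ran from 799 to 4330 over the alternative fits, DESeq2 among them. All 7 pigment genes were lower in every LPC day 7 mouse than in every LPC day 4 mouse, in FPKM and in CPM, and in CPM 8.22% of all genes were lower without overlap. Ednrb was higher without overlap in CPM only, with 21.6 in the lowest LPC day 7 mouse and 21.2 in the highest LPC day 4 mouse, as were 8.85% of all genes in CPM, and its FPKM values overlapped. The median log2 fold change of the members was -2.35, and that of all genes was 0.03. In bulk skin, fewer pigment cells and less RNA per pigment cell cannot be told apart. Pmel was called in each of the 16 fits that left out 1 library, with adjusted p up to 0.0438, and no other member was. Without LPC day 4 mouse 1, 2 or 3, or without LPC day 7 mouse 2 or 4, only 1 member was called, and 3 were called without LPC day 4 mouse 4 or vehicle day 7 mouse 2.

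**Figure D3:**
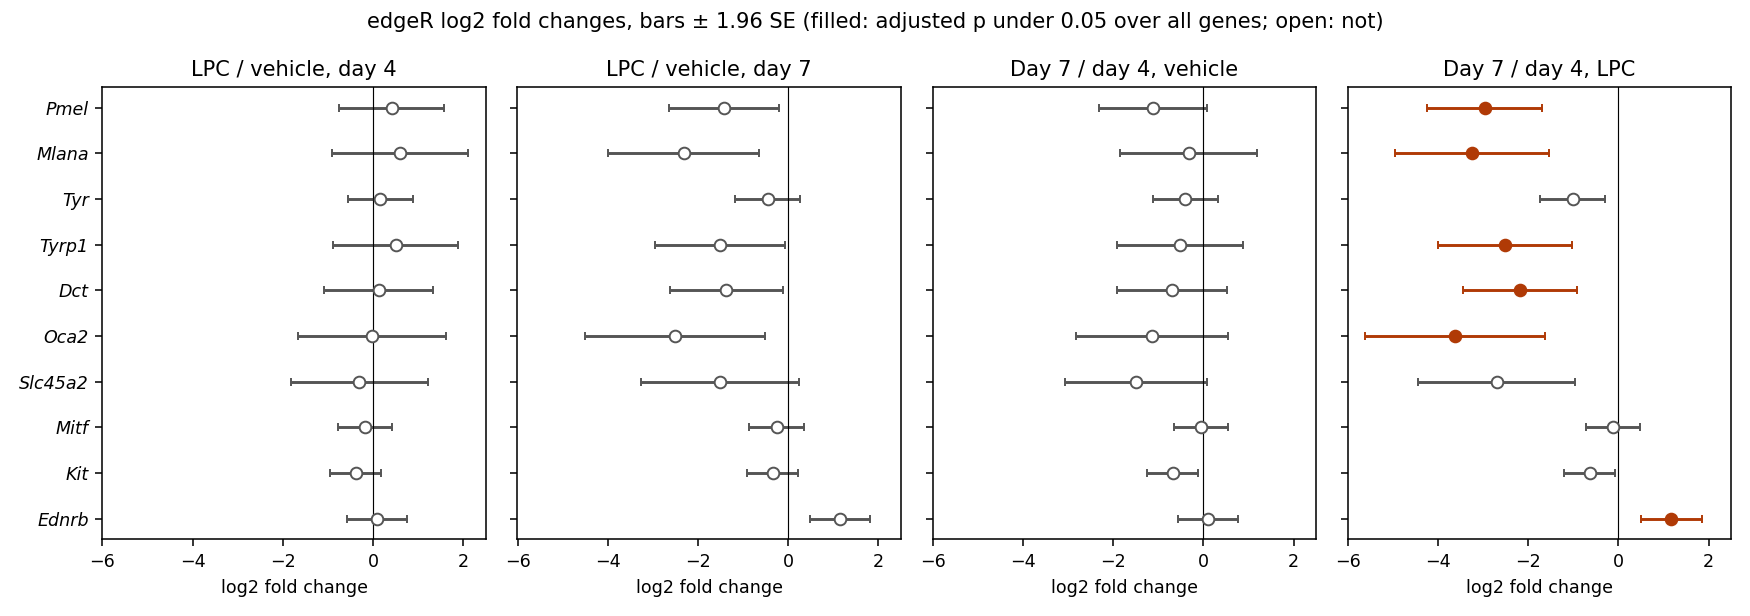
Log2 fold changes (horizontal axis) of the 10 genes in 4 comparisons, with bars for approximate 95% intervals. The bars come from the SE by a normal approximation and are narrower than the edgeR test implies. Filled points mark an adjusted p under 0.05 over all genes, and they occur only between the days under LPC, for 6 genes.

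Between LPC and vehicle on day 7 the 7 pigment genes all had negative estimates and none passed. Their log2 fold changes ran from -2.51 for Oca2 to -0.46 for Tyr, with adjusted p from 0.1418 to 0.5493. The vehicle day 7 group was split, with mice 2 and 4 high and mice 1 and 3 at the level of LPC mice, so the groups overlapped in each pigment gene, while 5.16% of all genes were lower without overlap. Ednrb had 1.15 (SE 0.34, adjusted p = 0.07368) and did not overlap between the groups, as did 5.7% of all genes in that direction. No member was called, against 3.83% of all genes. At an unadjusted p under 0.05 there were 5 members and 19.7% of all genes, and DESeq2 called 2, Mlana (adjusted p = 0.04336) and Ednrb (adjusted p = 0.0164). The shares of all genes are edgeR's, which called 604, and the alternative fits, DESeq2 among them, called 45 to 3376. The 2 calls by DESeq2 thus have no share of its own beside them.

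On day 4 the LPC and vehicle groups overlapped in every member. The pigment genes had log2 fold changes from -0.30 for Slc45a2 to 0.60 for Mlana, and no member had an unadjusted p under 0.05 or was called by edgeR or by DESeq2. By edgeR 0.139% of all genes were called, which was 22, and 19.2% had an unadjusted p under 0.05. The alternative fits called 0 to 1763 genes, and DESeq2, among them, called more than edgeR. Of all genes, 7.42% were higher and 8.67% lower without overlap. The approximate interval of Pmel's log2 fold change, from -0.76 to 1.58 by a normal approximation, still allows sizeable changes in either direction.

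In vehicle mice the 7 pigment genes had negative estimates from day 4 to day 7, from -1.49 for Slc45a2 to -0.33 for Mlana, and none passed. No member was called by edgeR or DESeq2, and 1 member, Kit, had an unadjusted p under 0.05. By edgeR 0% of all genes were called and 13% had an unadjusted p under 0.05, while the alternative fits called 0 to 223 genes. No member was without overlap, against 3.45% of all genes higher and 2.76% lower. The interaction term, which asks whether LPC acted differently on the 2 days, was -1.84 (SE 0.86, adjusted p = 0.2934) for Pmel and -2.91 (SE 1.15, adjusted p = 0.2224) for Mlana. No member passed that test by edgeR or DESeq2, and 3 had an unadjusted p under 0.05 against 16.9% of all genes. By edgeR 0% of all genes were called, while the alternative fits called 0 to 2798 genes but no member. The fall under LPC is therefore not shown to differ from the change in vehicle mice. These comparisons share groups, so they are not independent of one another.

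Genes of the growing hair bulb, where many pigment cells sit, were set beside the members. The score was the mean log2 CPM of 25 hair keratin and bulb genes, none of them a member. Its mean was 5.42 in vehicle and 3.84 in LPC mice on day 4, and 2.04 and 2.30 on day 7. From day 4 to day 7, 0 of the 25 genes had a positive estimate in vehicle mice (median log2 fold change -3.49). Under LPC 1 of 25 did (median -2.11). The score was highest, at 7.25, in vehicle day 4 mouse 2, which was also highest in the pigment genes. LPC day 4 mouse 4 had the lowest score of its group (1.06) with a high mean z-score of the pigment genes (0.978), and LPC day 7 mouse 4 had the highest score of its group (3.96) with the lowest z-score of all (-1.39). Within groups, the slope on the score was positive for all 7 pigment genes, from 0.15 for Tyr to 0.51 for Oca2 in log2 units per unit of score. No member's slope passed by edgeR (adjusted p from 0.301 for Oca2) or by DESeq2. By edgeR 4 members had an unadjusted p under 0.05 against 10.2% of all genes, and 1.12% of all genes were called. With the score as a covariate, Pmel (adjusted p = 0.02499) and Oca2 (adjusted p = 0.0422) were called between the days under LPC.

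**Figure D4:**
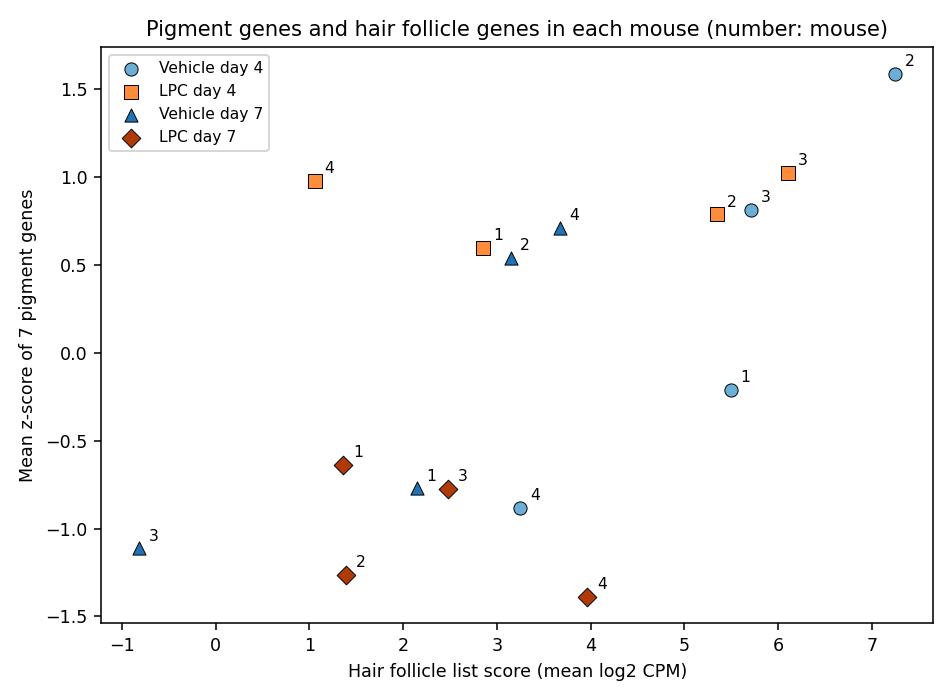
Mean z-score of the 7 pigment genes (vertical axis) against the hair follicle score (horizontal axis, mean log2 CPM), 1 point per mouse with its number. LPC day 4 mouse 4 at 1.06 and LPC day 7 mouse 4 at 3.96 lie away from the general rise.

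Mast cells were considered because they express Kit and Mitf. Their score, the mean log2 CPM of the mast cell genes tested, ran from 2.31 to 3.97 over the 16 mice, with LPC day 7 mouse 1 lowest and vehicle day 7 mouse 4 highest. Mitf was also lowest and highest in these mice. The slope of Mitf on the score within groups was 0.76 (SE 0.22, adjusted p = 0.06237), and that of Kit 0.42 (SE 0.24, adjusted p = 0.2744). No member passed by edgeR, and 1 had an unadjusted p under 0.05 against 28.1% of all genes. DESeq2 called 1, Mitf (adjusted p = 0.01642). Of all genes, edgeR called 1.34%, which was 211, and the alternative fits, DESeq2 among them, called 0 to 2597. Over the 16 libraries Mitf had an r of 0.703 with the mast cell score and of 0.783 with the Schwann cell score. With each group's mean removed, Mitf had 0.717 with the mast cell and 0.835 with the Schwann cell score. It had 0.806 with the macrophage and 0.736 with the endothelial score. Over the 16 libraries Kit had 0.284 with the mast cell, 0.724 with the hair follicle and 0.791 with the Schwann cell score. After removal of each group's mean, Kit had 0.439, 0.534 and 0.661 with these scores. The scores other than the mast cell score were chosen after their values were seen. Ednrb had an r of 0.541 with the endothelial score, 0.57 with the macrophage score and 0.653 with the fibroblast score, and LPC day 7 mouse 2 was the highest of all 16 in Ednrb and in each of these scores.

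**Figure D5:**
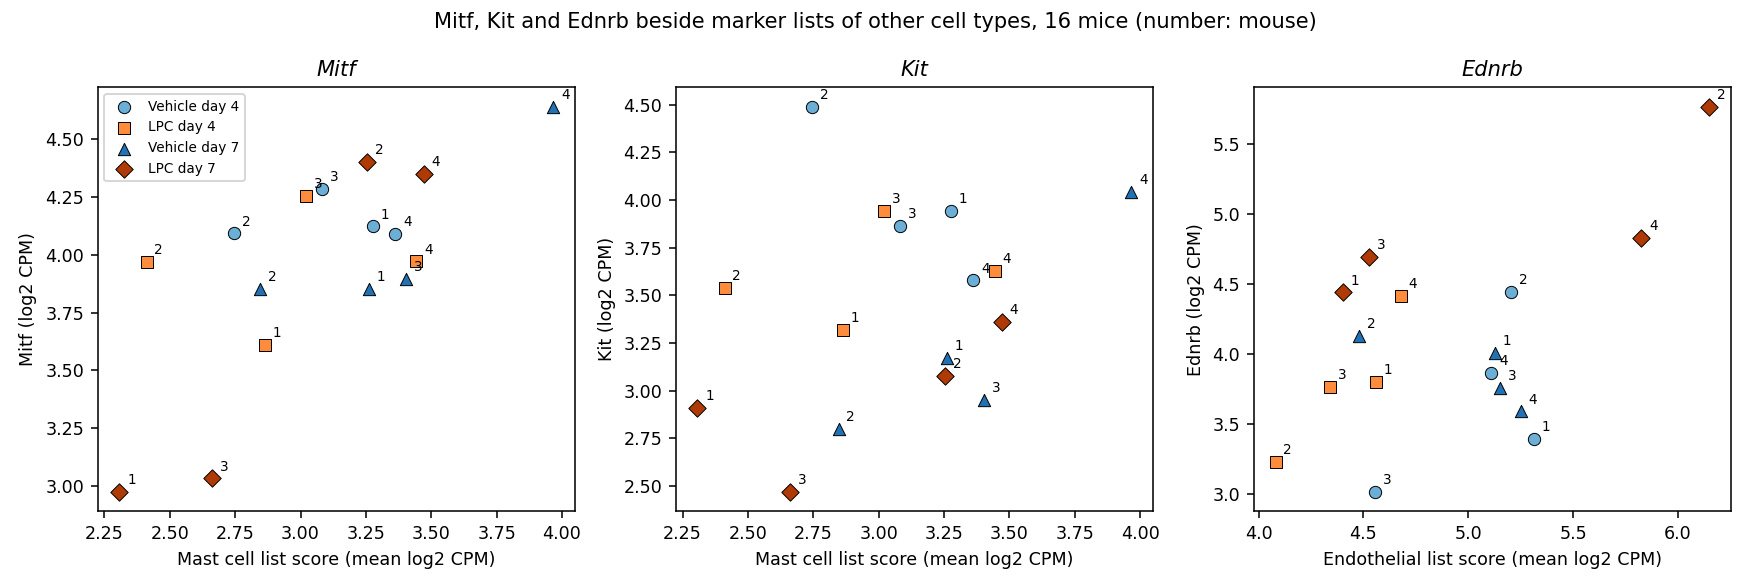
Log2 CPM of Mitf, Kit and Ednrb (vertical axes) against the mean log2 CPM of mast cell genes (left and middle) or endothelial genes (right), 1 point per mouse with its number. LPC day 7 mouse 1 is lowest and vehicle day 7 mouse 4 highest in both Mitf and the mast cell score.

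Other genes of the pigment cell were taken from a list of 20, of which 19 were tested. Between the days under LPC, 4 of them fell and none rose. Trpm1 fell by 2.82 (SE 0.73, adjusted p = 0.02755), Slc24a5 by 2.81 (SE 0.80, adjusted p = 0.03705), Mc1r, the melanocortin receptor, by 1.82 (SE 0.56, adjusted p = 0.04948) and the transcription factor Tfap2b by 1.03 (SE 0.27, adjusted p = 0.02942). Of 19 genes that build lysosome-related organelles throughout the body, none was called, and the 2 with the smallest p were Ap3b1 (0.27, adjusted p = 0.08281) and Vps11 (-0.34, adjusted p = 0.1782). Of 14 ligands and regulators of melanocytes none was called, with Edn1, an endothelin, at 0.68 (adjusted p = 0.0519). Among 11 genes of the neural crest and melanoblasts, Sox9 fell by 1.38 (adjusted p = 0.009346) and Zeb2 rose by 1.32 (adjusted p = 0.01528). Between the days in vehicle mice, Sox9 was at -1.20 (adjusted p = 0.1735) and Zeb2 at 0.58 (adjusted p = 0.408), both by edgeR. On day 7, LPC against vehicle, Cited1 rose by 2.56 (SE 0.67, adjusted p = 0.04789) and Tfap2b fell by 1.25 (SE 0.27, adjusted p = 0.02456). In that comparison edgeR called 3.83% of all genes. Cited1 had a similar estimate on day 4, 2.44 (SE 0.66, adjusted p = 0.0706, edgeR), and was not called there.

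Markers of other cell types were counted in the same comparison, in which 4.13% of all genes were called lower and 6.87% higher. Of the hair follicle genes, 2 of 25 were called lower, Shh by 3.78 (adjusted p = 0.03608) and Krt32 by 3.90 (adjusted p = 0.04092). Most of the list had negative estimates, with 1 of 25 positive and a median log2 fold change of -2.11. Of the Schwann cell genes 2 of 15 fell, of the macrophage genes 5 of 13 rose and of the endothelial genes 5 of 12 rose, with Cdh5 at 1.5 (adjusted p = 0.029). Of the keratinocyte genes 3 of 15 fell and 1 rose. Estimates were positive for 7 of these 15, with a median log2 fold change of -0.02, so the list did not move as a whole. The mean keratinocyte score was 9.63 to 9.92 in LPC day 7 mice against 10.30 to 10.56 in LPC day 4 mice, without overlap. Single genes differed widely, with Krt2 at -5.03 and Krt6a at 2.25. Of the mast cell genes 1 of 12 rose and of the fibroblast genes 3 of 10 rose. Of the skeletal muscle genes 1 of 25 rose, and of the adipocyte genes 2 of 15 rose and 1 fell. These are counts of called genes. Estimates were positive for 25 of 25 muscle genes (median log2 fold change 2.88) and for 12 of 15 adipocyte genes (median 2.05). The skeletal muscle score ran from 3.53 to 9.44 in LPC day 7 mice and from 3.09 to 6.79 in LPC day 4 mice. With that score as a covariate, Pmel alone was called (adjusted p = 0.03506). The part of these cell types in the fall of the pigment genes was not tested beyond these fits.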

How the data were processed

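RNA from ear skin of 16 mice was sequenced, and groups were taken from the sample titles (file names give other days). Per the labels' protocols, the authors aligned reads with Bowtie2 to GRCm38 and quantified genes with RSEM; versions and the strand setting: not given in the sources used here. Deposited by the authors were expected counts and FPKM per gene. Genes not listed in a library were set to 0. The deposited expected counts were rounded and tested with edgeR 4.0.16 in R 4.3.3 (quasi-likelihood, TMM, filterByExpr, 1 mean per group over all 16 libraries), leaving 15782 genes and removing 3657, with Benjamini-Hochberg adjustment and calls at 0.05. Slopes on cell type scores used scores centred within groups. DESeq2 1.42.0, limma 3.58.1 on log2(FPKM + 0.1) or log2(FPKM + 1), other filters, a replicate block, score covariates and left-out libraries were alternatives. Same-numbered mice did not deviate together (r from -0.596 to 0.539 over 24 pairs). The members and lists were chosen with earlier results of these data known. Named genes were all 10 members, of each list up to 4 called genes with the smallest p or, with none called, 2, and the 8 most alike genes; for some lists only counts are given, and 1 gene of a list is not reported here. Sequences and windows are from RefSeq, build GRCm38.p6.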

Additional observations from a re-analysis of the deposited data

Results flagged for a closer look

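Of 40 groups of 4 mice (10 genes in 4 groups), 3 held a mouse far from the other 3 in FPKM, and chance flags about 1 group in 20. Tyr was at 1.1 FPKM in LPC day 7 mouse 2, above the other mice of its group, with a gap of 0.884 of the group's range. Mitf was at 5.48 FPKM in vehicle day 7 mouse 4, with a gap of 0.938 of the range. Kit was at 3.33 FPKM in the same vehicle day 7 mouse 4, with a gap of 0.836 of the range. That mouse also had the highest mast cell score of all 16 (3.97), and their part in these values was not tested.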

How the results depend on the processing

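Between the days under LPC, where 6 members were called, the count was 1 with a replicate block (Pmel, adjusted p = 0.03476), 2 with the hair follicle score as a covariate, 1 with the skeletal muscle score as a covariate and 1 with only LPC day 7 mice 1 and 3 (Mitf, -0.96, with Pmel at adjusted p = 0.06913); it ran from 1 to 7 over the 16 fits that left out 1 library. DESeq2 called 8, the fit on only the libraries compared and that with the mast cell covariate 7 each, and limma 6 or 4 by pseudocount. The alternative fits also differed in the number of all genes called, from 799 to 4330. A higher count of members is therefore not by itself a result about the members. The call of Ednrb was lost in 7 of 13 alternatives, among them both limma fits and the fit on only the libraries compared, and in 9 of the 16 fits that left out 1 library. For LPC against vehicle on day 7, where none was called, DESeq2 called 2, the muscle covariate 1, only LPC day 7 mice 1 and 3 gave 1 and only mice 2 and 4 gave 1. For the mast cell slope, DESeq2 and the replicate block called 1 each, and leaving out 1 library gave 0 to 1. The covariates and the fits with part of the LPC day 7 mice were chosen after seeing the data, and the causes were not tested. The replicate numbers are not shown to pair the mice.

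The sign changes concern values that were not called. For LPC against vehicle on day 4, the muscle covariate gave -0.33 for Pmel, -0.68 for Mlana, -0.0636 for Tyr, -0.72 for Tyrp1, -0.68 for Dct and 0.34 for Mitf; limma with a pseudocount of 0.1 gave 0.50 for Oca2 and 0.20 for Slc45a2, with a pseudocount of 1 gave 0.087 for Oca2, the replicate block gave 0.25 for Oca2 and 0.0101 for Slc45a2, the hair covariate gave 1.44 for Oca2, 0.75 for Slc45a2 and -0.0308 for Ednrb, and only LPC day 7 mice 2 and 4 gave 0.0035 for Oca2. On day 7, Mitf was at 0.006 with the mast cell covariate and at 0.31 with only mice 2 and 4. From day 4 to day 7 in vehicle mice, the hair covariate gave 0.86 for Mlana, 0.14 for Tyr, 0.41 for Tyrp1, 0.25 for Dct, 0.60 for Oca2, 0.20 for Mitf and -0.0757 for Ednrb, the mast cell covariate 0.0415 for Mlana and the muscle covariate 0.10 for Mitf. Under LPC, Mitf was at 0.40 with only mice 2 and 4. For the difference between days, Mitf was at 0.0418 with the mast cell covariate and at 0.47 with only mice 2 and 4, and Kit at -0.0024 with limma and a pseudocount of 0.1, at -0.20 with the hair covariate, at -0.22 with the muscle covariate and at -0.2 with only mice 1 and 3. For the mast cell slope, the muscle covariate gave 0.13 for Tyrp1, 0.0224 for Oca2 and -0.14 for Ednrb, and Ednrb was at -0.0348 with only mice 1 and 3 and at -0.12 with only mice 2 and 4.

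Leaving out 1 library turned signs within these ranges. On day 4, LPC against vehicle, Tyr ran from -0.0719 to 0.58, Dct from -0.19 to 0.98, Oca2 from -0.40 to 0.95, Slc45a2 from -0.67 to 0.75 and Ednrb from -0.16 to 0.40; on day 7 Kit ran from -0.49 to 0.0061. Between days in vehicle mice, Mlana ran from -0.79 to 0.37, Tyr from -0.63 to 0.0178, Tyrp1 from -0.98 to 0.18, Dct from -1.06 to 0.17, Mitf from -0.28 to 0.0271 and Ednrb from -0.0896 to 0.43; under LPC Mitf ran from -0.36 to 0.081. For the difference between days Mitf ran from -0.31 to 0.16 and Kit from -0.16 to 0.39, for the hair slope Ednrb ran from -0.12 to 0.007, and for the mast cell slope Oca2 ran from -1.58 to 0.22.

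The number of all genes called between the days under LPC was 1736, and over the alternatives without a left-out library it ran from 799 to 4330. Low counts limit Oca2, Slc45a2 and Mlana, with 14, 22 and 45 counts summed over the 4 LPC day 7 mice.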
